A study of Mus musculus with 8 samples.

Results

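The 10 genes described here encode the main heat shock chaperones of the cytosol and the mitochondrial matrix, namely Hspa1a, Hspa1b, Hspa8, Hsp90aa1, Hsp90ab1, Hspb1, Hsph1, Dnajb1, Hspd1 and Hspe1. They were chosen by name and not by a cut on measured values, from 22481 mRNA genes, with earlier results of these data known. All 10 were among the 12716 with a mean of at least 0.5 FPKM (fragments scaled to transcript length and library size) that were tested. The RNA was labelled as that of extracellular vesicles (EVs, membrane particles shed by cells) of the left ventricle of C57BL/6J mice, male and 10 weeks old. The IR (ischemia and reperfusion) group was 4 mice whose left anterior descending coronary artery was tied for 45 min and then released for 24 h, and the sham group was 4 mice. By the study's account the EVs were spun out of ventricle that had been perfused with saline and digested with collagenase. They would then carry RNA of any cell type in the digest, and each library stands for 1 mouse. The comparison asks which of these chaperone mRNAs differed between IR-EVs and sham-EVs.

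Heat shock proteins bind unfolded or partly folded proteins and help them fold or be degraded. In a stressed cell the transcription factor HSF1 binds heat shock elements, runs of inverted GAA units, and switches on the inducible members such as Hspa1a, Hspa1b, Dnajb1 and Hsph1, whereas Hspa8 and Hsp90ab1 are made at a high level in nearly every unstressed cell. In heart muscle, ischemia followed by reperfusion is a known inducer of the heat shock response, and inducible HSP70 is known to protect the myocardium.

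The upstream sequences of the inducible HSP70 genes are shown first, because the near identity of these genes limits what can be said of each alone. They also hold letters of the kind that make up heat shock elements. RefSeq promoter windows (GRCm38.p6, 250 bases before to 50 after the start of transcription) were at hand for 7 of the 10 genes, 10 windows in all, and those of Hspa8, Hsp90aa1 and Hsp90ab1 were not analysed here. The stretches below end at the base before the start, and capitals mark each match to the letters GAANNTTC, which read the same on both strands.
Hspa1a, chr17:34972157-34972406, minus strand: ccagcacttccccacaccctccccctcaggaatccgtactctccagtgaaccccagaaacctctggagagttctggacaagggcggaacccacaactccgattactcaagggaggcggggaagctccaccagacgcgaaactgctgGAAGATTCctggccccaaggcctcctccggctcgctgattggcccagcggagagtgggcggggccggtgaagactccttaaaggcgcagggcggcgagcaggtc
Hspa1b, chr17:34959239-34959488, minus strand: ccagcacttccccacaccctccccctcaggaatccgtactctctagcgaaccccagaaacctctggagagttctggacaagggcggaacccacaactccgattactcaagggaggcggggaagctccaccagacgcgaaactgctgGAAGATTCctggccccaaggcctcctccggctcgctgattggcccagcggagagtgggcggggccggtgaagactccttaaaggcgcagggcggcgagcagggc
Hspb1, chr5:135887669-135887918, plus strand: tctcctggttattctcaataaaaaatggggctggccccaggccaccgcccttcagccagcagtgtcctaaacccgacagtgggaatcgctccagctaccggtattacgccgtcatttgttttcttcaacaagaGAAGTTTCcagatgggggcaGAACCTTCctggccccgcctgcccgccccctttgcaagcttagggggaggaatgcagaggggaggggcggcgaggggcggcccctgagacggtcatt

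The Hspa1a and Hspa1b stretches differed at 3 of 250 positions, and in both the capitals begin 104 bases before the start (position -104). In Hspb1, the gene of a small heat shock protein, the matches begin at -117 and -97. Hspd1 and Hspe1 lie head to head on chromosome 1, and their windows share 1 run of overlapping matches to the longer motifs TTCNNGAANNTTC and GAANNTTCNNGAA (each the reverse complement of the other). The 30 bases around it are shown with the run in capitals.
Hspe1, chr1:55088053-55088082, plus strand: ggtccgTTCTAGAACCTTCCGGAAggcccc

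The longer motif was present in windows of 3 of the 7 genes (Hspd1, Hspe1 and Hsph1, in the last of which it lies after the start). Counted by window, it was in 4 of the 10, against 0.603% of all 32851 promoter windows of the same length. At least 1 of the short motifs GAANNTTC and TTCNNGAA, which every longer match contains, was present in windows of 6 of the 7 genes. Counted by window, this was 7 of the 10, against 15.1% of all windows. The windows are not all separate sites in either count. Hspd1 and Hspe1 share their run, the windows of Hsph1 overlap, and those of Hspa1a and Hspa1b are nearly identical. The 2 windows of Dnajb1 and 1 window of Hspd1 held neither. These matches describe the letters of the reference genome and are not measurements of HSF1 binding.

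The mRNA fragments per library ranged from 13824442 to 22497260. In every library the EV RNA held little of the RNA that defines heart muscle cells: of 15 cardiomyocyte markers, Myl2, Nppa, Mb and Csrp3 had no fragment, and the summed level of all 15 was 5.90 to 11.8 FPKM in sham-EVs and 4.59 to 6.51 FPKM in IR-EVs. The 14 markers of enterocytes, the absorptive cells of the intestine, were all present, with summed levels of 21667 to 27004 FPKM in sham-EVs and 24291 to 36825 FPKM in IR-EVs. The levels given below are therefore those of RNA labelled as cardiac EVs, in which markers of heart muscle were near 0 and markers of enterocytes were high. Markers of an intestinal cell type at such levels are at odds with that label, and the tissue of origin was not tested. In such bulk RNA, fewer cells of a type and less RNA per cell cannot be told apart.

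None of the 10 chaperone mRNAs was called different between IR-EVs and sham-EVs (edgeR's quasi-likelihood test, a fold change over 2 at an adjusted p under 0.05), which was also the result for all genes tested (0% called). The study's own analysis of these libraries, by another test, did report mRNAs that differed. At an unadjusted p under 0.05 the count was again 0 of 10, against 9.73% of all genes tested. DESeq2 on the same fragments called 40 genes and limma on log2(FPKM + 0.1) called 0, with 0 of the 10 chaperones by either. The ranges of the groups overlapped for all 10 chaperones, whereas they did not overlap for 5.25% of all genes on the FPKM scale and for 5.05% on the scale of TMM-normalized counts. The fitted log2 fold change was below 0 (lower in IR-EVs) for 9 of the 10, with a median of -0.30, against 50.1% of all genes. The count depended on which libraries were kept. It was 6 of the 10 without sham 1, 8 without sham 2 and 10 without sham 3 (median -0.41). With any other single library left out it was 9 or 10. Without both sham 1 and sham 2 it was 3 of the 10, and the median was 0.09. Sham 1 and sham 2 were picked after they were seen to be high, so an upward move followed from the choice.

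**Figure D1:**
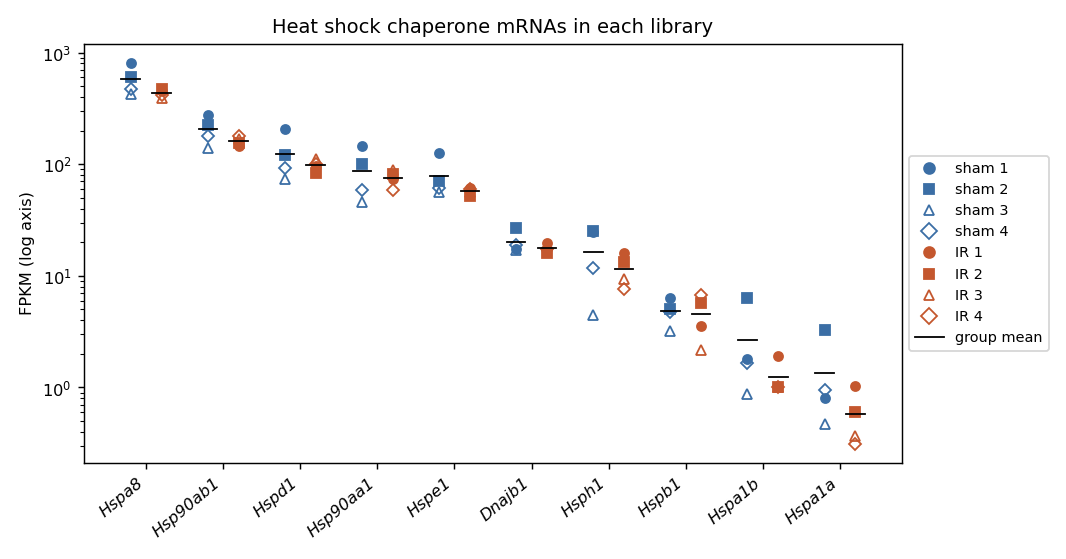
Level of each chaperone mRNA (FPKM, log axis) in the 4 sham (blue) and 4 IR (orange) libraries, ordered by mean level; the symbol gives the library number and the black line the group mean. The groups overlap for all 10 genes, and in 9 of them the highest point is sham 1 or sham 2.

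The inducible HSP70 mRNAs, Hspa1a and Hspa1b, were the least abundant of the 10 and carried the largest single difference between mice. Hspa1a was at 0.800, 3.25, 0.472 and 0.942 FPKM in sham 1 to sham 4 and at 1.03, 0.601, 0.369 and 0.312 FPKM in IR 1 to IR 4. Hspa1b was at 1.79, 6.39, 0.875 and 1.65 FPKM in the sham libraries and at 1.90, 1.02, 1.00 and 1.02 FPKM in the IR libraries. In both genes sham 2 stood above every other library, IR 1 was the highest of the IR libraries, and the remaining 3 sham libraries lay among or near the IR libraries. These levels rested on 15 to 170 fragments of Hspa1a and 47 to 320 fragments of Hspa1b per library. The fold changes were -1.11 (SE 0.62, edgeR adjusted p = 0.572) for Hspa1a and -0.97 (SE 0.56, adjusted p = 0.581) for Hspa1b on the log2 scale.

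Since 58.8% of the 50-base stretches of the longest coding Hspa1a transcript also occur in a transcript of Hspa1b, reads of either gene could be given to the other, and the genes were also fitted as 1. Their summed level was 2.59, 9.64, 1.35 and 2.60 FPKM in sham 1 to sham 4 and 2.93, 1.62, 1.37 and 1.34 FPKM in IR 1 to IR 4, which put sham 2 at 5.95 times the median of the other 7 libraries. The log2 fold change of the sum was -1.02 (SE 0.56, edgeR adjusted p = 0.570) with all libraries and -0.17 (adjusted p = 0.884) without sham 2. Hspa1a made up 23.4% to 37.1% of the sum. Among the sham libraries, sham 2 also had the highest summed levels of the markers of T and NK lymphocytes (255 FPKM, others 73.4 to 150 FPKM) and of macrophages and dendritic cells (75.7 FPKM, others 34.7 to 40.9 FPKM). This was not particular to immune cells. Sham 2 was likewise the highest sham library for markers of Paneth cells (1854 FPKM), endothelial cells (23.6 FPKM), fibroblasts and smooth muscle (422 FPKM) and erythroid cells (23.8 FPKM). Markers of B and plasma cells (17.6 FPKM) followed the same order, but those of cardiomyocytes, enterocytes, crypt and goblet cells did not. In the IR libraries the lymphocyte markers summed to 162 to 400 FPKM, highest in IR 1. In IR 4 they were at 332 FPKM and the HSP70 sum was at its lowest, 1.34 FPKM. Of the 8 lymphocyte markers tested, 7 had an unadjusted p under 0.05 and 0 were called. The part of any of these cell types in the HSP70 levels was not tested.

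Dnajb1 and Hsph1, which work with HSP70, were also highest in sham 2. DNAJB1 is the main inducible HSP40, a J-protein that brings clients to HSP70 and stimulates its ATPase. Its mRNA was at 17.3, 27.0, 16.9 and 18.7 FPKM in sham 1 to sham 4 and at 19.7, 16.1, 18.6 and 17.3 FPKM in IR 1 to IR 4, so that 7 libraries lay close together and sham 2 apart from them. The log2 fold change of Dnajb1 was -0.04 (SE 0.15, edgeR adjusted p = 0.950) and was 0.11 without sham 2. HSPH1, or HSP110, is a nucleotide exchange factor of HSP70. Hsph1 mRNA was at 24.8, 25.1, 4.47 and 11.7 FPKM in the sham libraries and at 16.1, 13.3, 9.29 and 7.70 FPKM in the IR libraries. Both the highest and the lowest values thus came from sham mice, with a ratio of 5.61 between them, and the IR values lay in between. The log2 fold change of Hsph1 was -0.40 (SE 0.47, edgeR adjusted p = 0.801), and it was 0.47 without sham 1 and sham 2.

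Hspa8, the constitutive HSP70 that also uncoats clathrin vesicles, was the most abundant of the 10 in every library, with a mean that ranked 88 among the 12716 genes tested. It was at 805, 605, 422 and 468 FPKM in sham 1 to sham 4 and at 451, 474, 395 and 415 FPKM in IR 1 to IR 4. Sham 1 and sham 2 were above all other libraries, and sham 3 and sham 4 lay within the IR range. The log2 fold change was -0.28 (SE 0.18, edgeR adjusted p = 0.617) with all libraries and -0.01 without sham 1 and sham 2. Hspa8 alone gave 46.5% to 55.2% of the summed FPKM of the 10 chaperones. The ratio of inducible to constitutive HSP70, (Hspa1a + Hspa1b) / Hspa8, was 0.00322, 0.0159, 0.00319 and 0.00554 in the sham libraries and 0.00651, 0.00342, 0.00348 and 0.00322 in the IR libraries, so that inducible HSP70 mRNA was at or below 1.57% of the HSP70 total in all 8. The group means of this ratio differed by -0.47 on the log2 scale (exact permutation test, two-sided, p = 0.686, adjusted over the 3 ratios examined p = 0.686), and by 0.05 without sham 2. The smallest p this design of 4 against 4 allows is 0.0286.

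Of the cytosolic HSP90 genes, the constitutive Hsp90ab1 was more abundant than the inducible Hsp90aa1 in all 8 libraries. Hsp90aa1 was at 144, 100, 45.4 and 58.7 FPKM in sham 1 to sham 4 and at 73.6, 80.9, 88.0 and 58.9 FPKM in IR 1 to IR 4. The highest and the lowest values of Hsp90aa1 both came from sham mice, and its log2 fold change was -0.16 (SE 0.30, edgeR adjusted p = 0.884). This value was 0.15 without sham 1 and 0.44 without sham 1 and sham 2. Hsp90ab1 was at 277, 225, 139 and 177 FPKM in the sham libraries and at 145, 155, 169 and 178 FPKM in the IR libraries, again with sham 1 and sham 2 highest and sham 3 lowest. Its log2 fold change was -0.14 (SE 0.17, edgeR adjusted p = 0.800) and was 0.01 without sham 1. The ratio of Hsp90aa1 to Hsp90ab1 did not separate the groups: it was 0.521, 0.444, 0.325 and 0.332 in the sham libraries and 0.507, 0.521, 0.522 and 0.331 in the IR libraries. Sham 3, sham 4 and IR 4 were thus the low libraries. The group means differed by 0.22 on the log2 scale (exact permutation p = 0.343, adjusted over 3 ratios p = 0.514). It was 0.38 without IR 4, 0.35 without sham 1, 0.12 without sham 3, 0.13 without sham 4 and 0.49 without sham 1 and sham 2. Taken from fragments in place of FPKM, the difference was 0.04 (exact permutation p = 0.943).

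HSP60 (Hspd1) and its lid HSP10 (Hspe1) form the chaperonin of the mitochondrial matrix, and the files place both in 1 locus on chromosome 1 (positions 55077834 to 55091307), on opposite strands. Hspd1 was at 205, 120, 74.3 and 93.1 FPKM in sham 1 to sham 4 and at 97.2, 83.9, 111 and 99.99 FPKM in IR 1 to IR 4. Hspe1 was at 125, 70.9, 56.9 and 61.3 FPKM in the sham libraries and at 60.9, 52.1, 55.9 and 59.6 FPKM in the IR libraries. Sham 1 stood above the other 7 libraries in both genes, and the 4 IR libraries lay close together, with coefficients of variation of 11.3% for Hspd1 and 6.92% for Hspe1. The log2 fold changes were -0.31 (SE 0.25, edgeR adjusted p = 0.695) for Hspd1 and -0.34 (SE 0.19, adjusted p = 0.572) for Hspe1. Without sham 1 they were 0.03 and -0.08. The ratio of Hspd1 to Hspe1 stayed between 1.30 (sham 3) and 1.98 (IR 3), and its group means differed by 0.16 on the log2 scale (exact permutation p = 0.286, adjusted over 3 ratios p = 0.514). From fragments in place of FPKM, this difference was 0.07 (exact permutation p = 0.514, not adjusted).

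Hspb1, which encodes the small heat shock protein that in the mouse is called HSP25 and holds unfolded proteins without using ATP, had its own pattern. It was at 6.35, 5.08, 3.22 and 4.76 FPKM in sham 1 to sham 4 and at 3.59, 5.76, 2.16 and 6.74 FPKM in IR 1 to IR 4. The highest and the lowest libraries were here both from IR mice, and the sham range lay within the IR range. Hspb1 was the 1 member with a fitted log2 fold change above 0, at 0.04 (SE 0.33, edgeR adjusted p = 0.980), from 29 to 95 fragments per library, and 51.6% of the 50-base stretches of its longest coding transcript also occur in a transcript of the pseudogene Hsp25-ps1. The same kind of sharing with transcripts of any other gene was 74.8% for Hspa8, 58.5% for Hsp90aa1 and 44.8% each for Hspd1 and Hspe1, against 4.49% for Hsp90ab1, 0.441% for Dnajb1 and 0% for Hsph1. How the fragments of such stretches were assigned is not given in the sources used here, so the levels of the former genes are less certain than those of the latter.

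**Figure D2:**
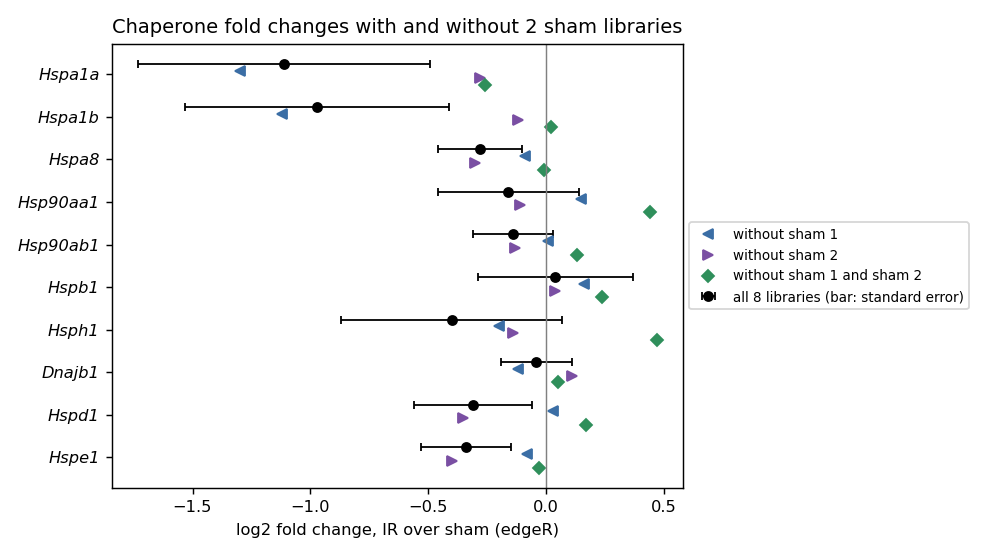
Log2 fold change of each chaperone mRNA, IR over sham, from edgeR with all 8 libraries (black, bar = standard error), without sham 1 (left-pointing triangle), without sham 2 (right-pointing triangle) and without both (diamond). Without sham 2 Hspa1a and Hspa1b move toward 0, and without both sham libraries 7 of the 10 genes lie above 0.

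The chaperones differed more among sham mice than among IR mice. The summed level of the 10 was 1607, 1188, 764 and 896 FPKM in sham 1 to sham 4 (mean 1114 ± 373, SD, n = 4) and 870, 883, 849 and 844 FPKM in IR 1 to IR 4 (mean 862 ± 18.0, SD, n = 4). The IR libraries agreed within a narrow range that lay between sham 3 and sham 4, and sham 1 and sham 2 lay above it. The median coefficient of variation of the 10 was 43.4% in sham-EVs and 13.9% in IR-EVs, whereas over all genes tested these medians were 17.5% and 17.4%. It was larger in sham-EVs for 9 of the 10, Hspb1 being the exception, and for 50.9% of all genes. No test was made of this difference in spread.

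**Figure D3:**
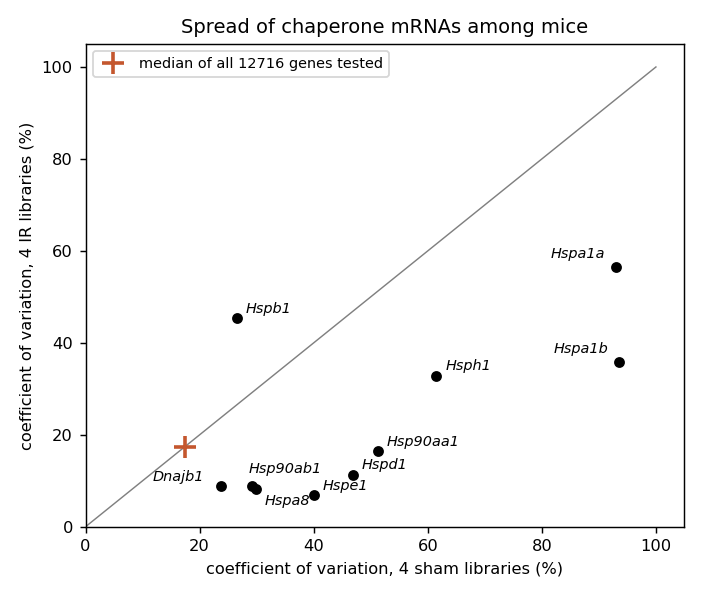
Coefficient of variation of FPKM among the 4 sham libraries (x axis, percent) against that among the 4 IR libraries (y axis, percent) for each chaperone mRNA, with the median of all genes tested as a cross; the line marks equal spread. Hspb1 lies above the line and the other 9 genes lie below it.

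Sham 1 was the highest of the 8 libraries for 5 chaperones (Hspa8, Hsp90aa1, Hsp90ab1, Hspd1 and Hspe1), and for 32.9% of all genes tested. Sham 2 was highest for 4 (Hspa1a, Hspa1b, Dnajb1 and Hsph1), against 16.3% of all genes. Sham 3 was lowest for 5 of the 10, against 12.5% of all genes. Each library was also set against the median of the other libraries on the log2(FPKM + 0.1) scale. The median chaperone stood at 0.79 in sham 1 and 0.43 in sham 2, where the median of all genes stood at 0.14 in each. In sham 3 the median chaperone stood at -0.53 and the median of all genes at -0.05. For Hsph1 the level in sham 1 was close to that in sham 2 (24.8 and 25.1 FPKM). Markers of crypt and dividing epithelium summed to 334 FPKM in sham 1 and 263 FPKM in sham 2, to 180 and 199 FPKM in sham 3 and sham 4, and to 106 to 216 FPKM in the IR libraries. Their part in the chaperone levels was not tested.

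The levels spanned from a mean of 0.971 ± 0.955 FPKM for Hspa1a to 504 ± 138 FPKM for Hspa8 (SD, n = 8). In falling order the means were those of Hspa8, Hsp90ab1, Hspd1, Hsp90aa1, Hspe1, Dnajb1, Hsph1, Hspb1, Hspa1b and Hspa1a. Of the neighbours in this order, Hspa8 and Hsp90ab1, and likewise Hspe1 and Dnajb1, had ranges over the 8 libraries that did not overlap. The other neighbours overlapped in range, and Hsp90aa1 and Hspe1 kept their order in 5 of the 8 libraries, whereas every other neighbouring pair kept it in 7 or 8.

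Over the 8 libraries the chaperone mRNAs mostly varied in the same direction. Of the 45 pairs, 44 had a Pearson r above 0 on the log2(FPKM + 0.1) scale, with a median r of 0.54, which became 0.23 without sham 1 and sham 2. The pairs with an adjusted p under 0.05 over the 45 numbered 2 by r and 0 by Spearman's rho. Hspa1a and Hspa1b had r = 0.96 (exact permutation p = 0.00218, adjusted p = 0.0491) and rho = 0.81 (exact permutation p = 0.0218, adjusted p = 0.163), and r = 0.90 without the farthest libraries, sham 2 and IR 4. These genes share sequence, and the part of shared reads in this relation was not tested. Hsp90ab1 and Hspd1 had r = 0.92 (exact permutation p = 0.00166, adjusted p = 0.0491) and rho = 0.83 (exact permutation p = 0.0154, adjusted p = 0.163), and r = 0.64 without the farthest libraries, sham 1 and sham 2. Hspa8 and Hspe1 had r = 0.92 (exact permutation p = 0.00875, adjusted p = 0.0508) and rho = 0.62 (exact permutation p = 0.115, adjusted p = 0.272), but r = -0.01 without sham 1 and sham 2, so this relation rests on those libraries. Every pair shares the libraries and their scaling. On this scale sham 1 and sham 2 stood above the median of the other libraries for 65.0% and 71.8% of all genes tested. The share of r above 0 among pairs of other genes is not given here. The 44 of 45 is thus not shown to be particular to the chaperones.

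Among all genes tested, those whose level most resembled the sum of Hspa1a and Hspa1b over the 8 libraries were Ubtf (r = 0.95), Pyroxd1 and Zfp46 (r = 0.94 each), Rabep2 (r = 0.93) and Dpysl3 (r = 0.91), given as a description without a test. Ubtf, a transcription factor of the ribosomal RNA genes, was at 29.3 FPKM in sham 2 and at 20.8 to 25.1 FPKM in the other libraries, so it too was highest in sham 2, within a much narrower range. The lowest values of r were those of Mea1 (-0.97), Trak1 (-0.96) and Uprt (-0.91). Of the other chaperones, Dnajb1 was ranked 8 of 12714 genes by this measure (r = 0.90) and Hsph1 188 (r = 0.76), while Hspb1 was ranked 6062 (r = 0.23). Sham 2, where the sum was 5.95 times the median of the other libraries, weighs heavily in these values. With Hspa1b alone, Dnajb1 had r = 0.92, and r = 0.52 without the farthest libraries, sham 2 and sham 3. For Hsph1 and Hspa1b the same values were 0.76 and 0.73.

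In the wider chaperone network, 11 lists of related genes held 100 tested genes, of which 0 were called and 4 (4.00%) had an unadjusted p under 0.05, a smaller share than the 9.73% of all genes tested. These 4 are given as values, with no call. Bag1, a nucleotide exchange factor of HSP70, was at 49.98, 50.6, 54.0 and 53.1 FPKM in sham 1 to sham 4 and at 41.6, 33.3, 39.8 and 38.7 FPKM in IR 1 to IR 4. Here every IR library lay below every sham library, and the log2 fold change was -0.33 (SE 0.10, unadjusted p = 0.00845, edgeR adjusted p = 0.455). The related Bag5 was at 7.76, 8.28, 6.73 and 8.62 FPKM in the sham libraries and at 5.76, 5.05, 5.14 and 6.62 FPKM in the IR libraries, with a log2 fold change of -0.39 (SE 0.12, unadjusted p = 0.00855, edgeR adjusted p = 0.455). Hspa14, a ribosome-associated HSP70, was at 23.8, 17.2, 16.2 and 16.5 FPKM in the sham libraries and at 14.6, 12.7, 12.9 and 15.5 FPKM in the IR libraries, with a log2 fold change of -0.34 (SE 0.12, unadjusted p = 0.0211, edgeR adjusted p = 0.473). The J-protein gene Dnajb3 was the 1 with a higher fitted level in IR-EVs, at 0.88 (SE 0.35, unadjusted p = 0.0306, edgeR adjusted p = 0.480). Its 199 fragments in all gave 0.805 to 1.23 FPKM in sham-EVs and 2.50, 1.16, 2.59 and 1.21 FPKM in IR 1 to IR 4, so that IR 1 and IR 3 lay above the others.

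Counted over the lists, the ranges of the groups did not overlap for 5 of the 100 genes on the FPKM scale (Bag1, Bag5, Hspa14, Hspbp1 and Stub1, all lower in IR-EVs) and for 5 of the 100 on the TMM scale, where Dnajc1, higher in IR-EVs, took the place of Stub1. Both shares are close to the shares of all genes given above. The deposited FPKM scale itself sits lower in IR-EVs, with a median log2 difference over all genes of -0.10 by limma against 0.00 after TMM scaling. Hspbp1, an HSP70 binding protein that releases nucleotide, was at 8.15, 5.50, 4.36 and 4.40 FPKM in the sham libraries and at 3.62, 3.76, 3.88 and 4.08 FPKM in the IR libraries, with an edgeR adjusted p of 0.514.

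The cytosolic chaperonin TRiC, which folds actin and tubulin, and its partner prefoldin had 13 tested genes, of which 11 had a fitted log2 fold change below 0 (median -0.21) and 10 were highest in sham 1. Tcp1, a TRiC subunit, was at 125, 81.7, 69.8 and 70.2 FPKM in sham 1 to sham 4 and at 57.5, 55.4, 64.6 and 77.8 FPKM in IR 1 to IR 4 (log2 fold change -0.31, SE 0.16, edgeR adjusted p = 0.557). Its pattern was that of Hspd1 and Hspe1, with sham 1 apart from the rest. Of the 13 HSP90 co-chaperones tested 9 were highest in sham 1 and 9 lay below 0 (median -0.14). The immunophilin Fkbp4, one of them, was at 118 FPKM in sham 1 and at 50.3 to 76.1 FPKM elsewhere. Of the 9 genes of mitochondrial proteostasis 8 were highest in sham 1 and 7 lay below 0 (median -0.16), among them Hspa9, the mitochondrial HSP70, at 122 FPKM in sham 1 and 65.1 to 97.9 FPKM elsewhere. All 5 organelle paralogs of HSP70, HSP90 and HSP110 (Hspa5, Hspa9, Hsp90b1, Trap1 and Hyou1) were highest in sham 1, and 3 of the 5 lay below 0 (median -0.03).

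Of the 4 tested HSF factors (the HSF genes and the HSF1 inhibitor Hsbp1) 1 lay below 0 and 2 were highest in sham 1. Hsf1 itself was at 6.19, 6.14, 3.09 and 4.25 FPKM in sham 1 to sham 4 and at 4.46, 4.64, 4.38 and 4.56 FPKM in IR 1 to IR 4, with a log2 fold change of 0.00 (SE 0.20, edgeR adjusted p = 0.997). Sham 1 and sham 2 were thus the highest and sham 3 the lowest for Hsf1 as well, as for Hsp90ab1. Of the 20 J-proteins tested 7 lay below 0 (median 0.07) and 8 were highest in sham 1. Of the 6 other HSP70 and HSP110 genes 3 lay below 0 and 3 were highest in sham 1. Of the 12 HSP70 partners, which include Bag1 and Bag5, 9 lay below 0 (median -0.15) and 5 were highest in sham 1. The small heat shock proteins had 5 tested genes, 1 of them below 0 and none highest in sham 1 or sham 2. Cryab, a small heat shock protein that is abundant in heart muscle, was at 1.70 to 2.01 FPKM among sham mice, within its range of 1.30 to 2.50 FPKM among IR mice. Hspb3, a small heat shock protein gene of muscle, had 1 fragment in all 8 libraries together, and Cryaa, the lens crystallin, had 0. Over all 100 list genes 52.0% lay below 0 and 48.0% were highest in sham 1, against 50.1% and 32.9% of all genes tested.

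**Figure D4:**
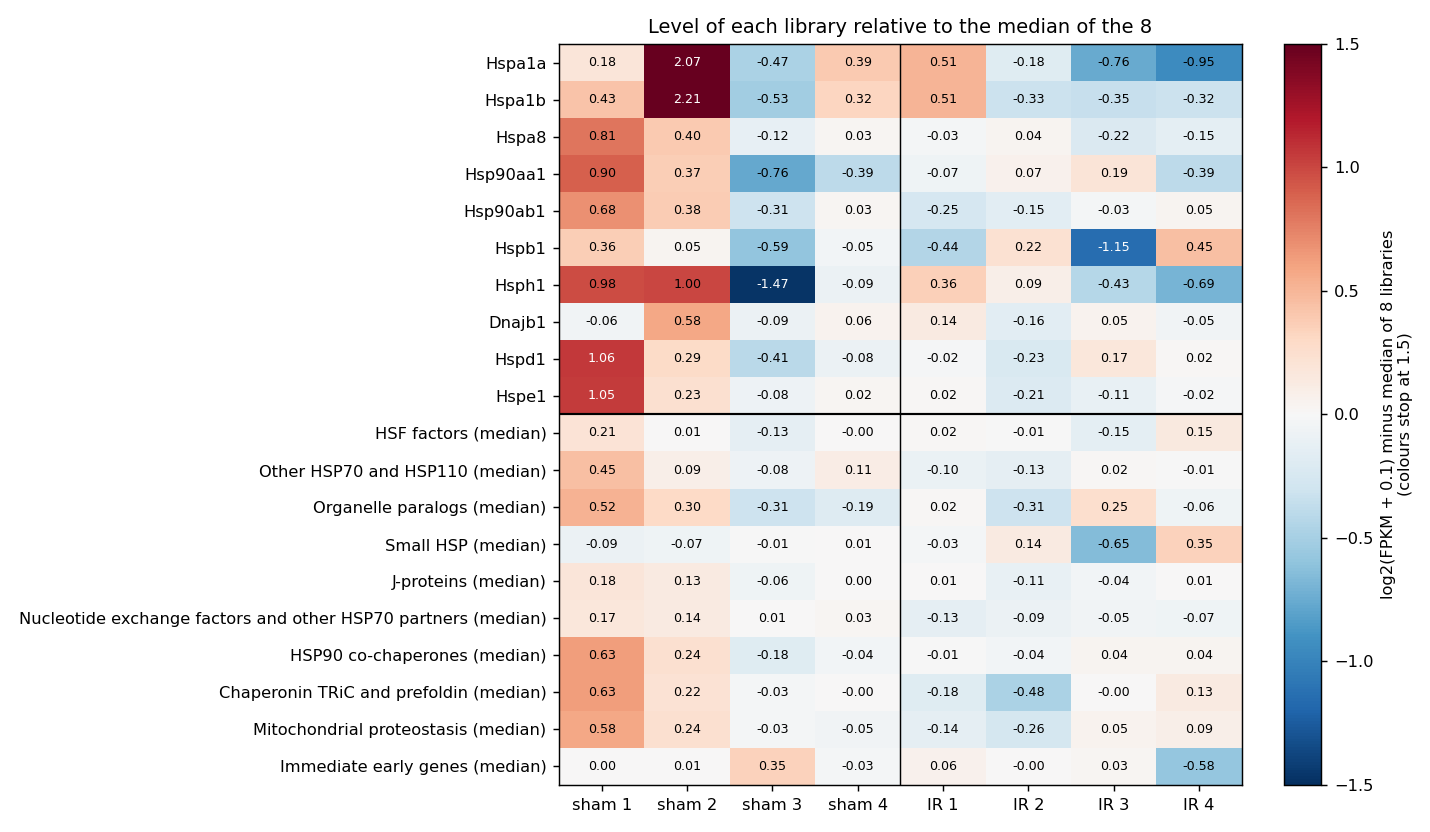
Level of each of the 8 libraries on the log2(FPKM + 0.1) scale minus the median of the 8, for the 10 chaperone mRNAs (top) and as the median over the genes of 10 of the related lists (bottom); red is higher, blue is lower, and colours stop at 1.5. Hspd1 stands at 1.06 in sham 1, Hspa1a at 2.07 in sham 2 and Hsph1 at -1.47 in sham 3.

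Long noncoding RNAs from the same loci were scarce. Of the 31549 lncRNA transcripts in the deposited table, 2 overlapped a chaperone gene on the opposite strand, and neither reached a mean of 0.5 FPKM. AK078618, antisense to Hspa1b, had 50 fragments in all and was at 0.181, 0.129, 0.110 and 0.103 FPKM in sham 1 to sham 4 and at 0.113, 0.198, 0.108 and 0.282 FPKM in IR 1 to IR 4, and the groups overlapped (two-sided exact permutation test, p = 0.400). It was highest in IR 4 and did not share the high level of Hspa1b in sham 2. AK016582, antisense to Hsp90aa1, had 1 fragment in sham 2 and 1 in sham 4, and was listed at 0 in the other libraries. Whether the counting used strand is not given in the sources used here, so reads of Hspa1b and of AK078618 may not be told apart in full.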

How the data were processed

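RNA labelled as that of cardiac EVs from 4 sham and 4 IR mice was sequenced as stranded paired-end libraries after ribosomal RNA removal. According to the submitters' processing notes, reads were trimmed with cutadapt 1.9.3, aligned to mm10 with HISAT2 and quantified with Cuffdiff (other versions, the annotation and the strand setting are not given in the sources used here). The FPKM values and the estimated counts, already scaled by 1 factor per library, were deposited by the authors. Each count was divided by the most frequent value of its library, taken as 1 fragment, and rounded. Of the mRNA values checked, 90.6% to 91.0% lay within 0.02 of a whole number. All columns of single libraries were mapped by their labels.

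IR and sham were compared with edgeR 4.0.16 (TMM, robust quasi-likelihood F test, two-sided, R 4.3.3) over all mRNAs whose mean was 0.5 FPKM or more, and p-values were adjusted by Benjamini and Hochberg's method over all of them. As in the study's methods, calls required a fold change over 2 at an adjusted p under 0.05. Standard errors are approximate, obtained from the fold change and its F statistic. Alternatives were limma 3.58.1 on log2(FPKM + 0.1) or log2(FPKM + 1), DESeq2 1.42.0, median-ratio scaling, no filter, a block for the replicate number and each library left out. The fit without sham 1 and sham 2, and the fit of Hspa1a and Hspa1b as 1, were chosen after the data were seen. Exact permutation tests used all 70 splits (40320 pairings for correlations). The members and lists were chosen with earlier results of these data known. The genes named were all 10 members, up to 4 genes of each list with the smallest p, and the 5 most and 3 least like Hspa1a plus Hspa1b. Stub1, Hspa5, Hspb3 and Cryaa were named after their values were seen. The values of 1 list gene are not reported here. Shared sequence was counted as exact 50-base stretches, on either strand, in GENCODE M21 transcripts of other genes. The scripts were tested on simulated data. Plots were made with matplotlib 3.10.9.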

Additional observations from a re-analysis of the deposited data

Results flagged for a closer look

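In 5 of the 28 groups of 4 libraries examined, 1 library lay far from the other 3 by Dixon's 95% criterion, which chance alone meets in about 1 of 20 groups. Hspa1a in sham 2 was at 3.25 FPKM, with the other sham libraries at 0.472 to 0.942 FPKM, and Hspa1b in sham 2 was at 6.39 FPKM, with the others at 0.875 to 1.79 FPKM. Hspa1b in IR 1 was at 1.90 FPKM, with the other IR libraries at 1.00 to 1.02 FPKM. The ratio of inducible to constitutive HSP70 was 0.00651 in IR 1, with its 3 fellow IR libraries at 0.00322 to 0.00348. The ratio of Hsp90aa1 to Hsp90ab1 was 0.331 in IR 4, with the remaining ones at 0.507 to 0.522. Hspa1a and Hspa1b share sequence and both enter the HSP70 ratio, so the 5 are not independent.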

How the results depend on the processing

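No alternative called any of the 10 chaperones. Of 214 alternative values, 196 kept their direction and their side of the threshold and 18 changed sign, all of values that did not pass the test. Without sham 1 and sham 2 the log2 fold changes were 0.02 for Hspa1b, 0.44 for Hsp90aa1, 0.13 for Hsp90ab1, 0.47 for Hsph1, 0.05 for Dnajb1 and 0.17 for Hspd1. Hspb1 was at -0.17 and -0.13 with limma and a pseudocount of 0.1 or 1 FPKM, and at -0.05 with the replicate block. With each library left out in turn, the values ran from -0.34 to 0.15 for Hsp90aa1, from -0.26 to 0.01 for Hsp90ab1, from -0.16 to 0.27 for Hspb1, from -0.12 to 0.11 for Dnajb1, from -0.46 to 0.03 for Hspd1 and from -0.73 to 0.05 for the HSP70 ratio. The cause was not tested. The adjusted p of the members ranged from 0.427 to 0.994 over all alternatives. The replicate numbers are not stated to pair the mice. Same-numbered libraries had correlations of -0.29 to 0.05 between their deviations, and 0 libraries correlated best with their own number. These correlations cannot settle whether mice were paired. The replicate block gave 0 calls and 980 genes with an unadjusted p under 0.05, against 1237 without it. Depth limits Hspa1a, Hspa1b and Hspb1, with as few as 15, 47 and 29 fragments in a library.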

Other observations

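Of the 13 immediate early genes tested, which are switched on within minutes of many stimuli and during tissue digestion, 2 were highest in sham 1 and 1 in sham 2, where 49.1% of all genes tested were highest in either library, and 0 had an unadjusted p under 0.05. Jun was at 18.0, 22.1, 20.6 and 19.3 FPKM in sham 1 to sham 4 and at 23.6, 28.7, 24.1 and 11.6 FPKM in IR 1 to IR 4, with a log2 fold change of 0.35 (SE 0.28, edgeR adjusted p = 0.691). Egr1 was highest in sham 3 (4.35 FPKM), the library in which 5 of the 10 chaperones were lowest.

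The heme oxygenase gene Hmox1, which is induced by oxidative stress, was not called here. The study's own analysis of these libraries listed Hmox1 as higher in IR-EVs, and its RT-qPCR gave the same direction. Hmox1 was at 1.46, 3.69, 0.930 and 1.05 FPKM in the sham libraries and at 4.25, 0.840, 1.78 and 5.57 FPKM in the IR libraries (log2 fold change 0.89, SE 0.59, edgeR adjusted p = 0.627). It was high in sham 2, IR 1 and IR 4, which were also the libraries with the highest summed levels of macrophage and dendritic cell markers, at 75.7, 94.1 and 86.2 FPKM, against 34.7 to 62.5 FPKM in the others. Markers of B and plasma cells and of endothelial cells were also highest in sham 2, IR 1 and IR 4. The part of any of these cells in the Hmox1 level was not tested.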
